A study of Homo sapiens with 18 samples.

Results

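The 10 genes described here encode parts of the autophagy machinery: ULK1, BECN1, ATG9A, WIPI1, WIPI2, ATG5, MAP1LC3B, GABARAPL1, TP53INP2 and SQSTM1. They were taken by symbol from a list of autophagy genes described as repressed by G9a, and all 10 were found among the 26475 gene symbols of the count table. Their transcripts were measured by RNA-seq in Mel92.1 and MP41, 2 human uveal melanoma cell lines. Each line was kept for 48 h with DMSO (the solvent control), with 1 μM UNC0642 or with 1 μM A366, in 3 biological replicates per group, which gives 18 libraries. Both compounds are small-molecule inhibitors of G9a, and the study states that they can also inhibit the related EHMT1 (GLP). No gene was knocked down or deleted in any group. The data come from 2 established lines grown in culture, so the replicates are cultures of the same cells and not different tumors.

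G9a, the product of EHMT2, methylates histone H3 on a lysine of its tail, and the dimethyl mark it leaves is found over repressed genes. Autophagy is the route by which a cell wraps part of its cytoplasm in a double membrane, the autophagosome, and delivers it to the lysosome. In other cell types G9a has been described at the promoters of MAP1LC3B, WIPI1 and TP53INP2, with higher transcript levels once it is inhibited or lost, which is what the description of the list refers to. The comparison of each inhibitor with DMSO asks whether these transcripts rose in uveal melanoma cells.

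Few of them passed the test. Of the 10 genes, 0 passed the test with either compound in Mel92.1 (all genes, 0.688% with UNC0642 and 0.213% with A366) and 0 passed with UNC0642 in MP41 (0.241%). For A366 in MP41, 2 of 10 rose, SQSTM1 and GABARAPL1, where 46.0% of all genes passed. SQSTM1 lost its call with an offset for transcript length and GC content (adjusted p = 0.41), and GABARAPL1 lost its call without 4 libraries that went against their labels (adjusted p = 0.10). MAP1LC3B, WIPI1 and TP53INP2 passed in none of the 4 comparisons, so a rise was not detected for the genes that lead the list. Here a gene passes when its Benjamini-Hochberg adjusted p from edgeR's quasi-likelihood test, taken over all genes tested, is under 0.05.

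Total counts ran from 23601160 to 62941453 per library. Counts for the 10 genes ran from 248 to 80705 in a library, so all 10 passed the filter on low counts in both lines. Ribosomal RNA took from 3.31% to 32.8% of the counts, and the library with both the lowest total and the highest ribosomal share was Mel92.1 UNC0642 replicate 1. All 7 melanocyte markers (PMEL, MLANA, TYR, TYRP1, DCT, SOX10 and MITF) were above 1 CPM in either line, where CPM is the usual scaling of counts to the depth of the library, and their summed level was 21012 to 24415 CPM in Mel92.1 and 14999 to 16193 CPM in MP41. The 3 immune markers together stayed at or under 1.14 CPM.

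Of the 18 libraries, 4 went against their labels. The libraries labelled A366 replicates 2 and 3 of each line held 0.0233% to 0.0677% of the DMSO level of genes expressed in the labelled line only, and 96.5% to 112% of the level of genes expressed in the other line only. In the other 14 libraries these values were 90.9% to 114% and 0.0138% to 0.387%. The study's published per-replicate values list the same 4 libraries under the other line. They were therefore placed there: the A366 group of Mel92.1 holds the library labelled Mel92.1 A366 replicate 1 and the libraries labelled MP41 A366 replicates 2 and 3, and the A366 group of MP41 holds the reverse. A366 calls of the 10 genes are also given as labelled and without these 4 libraries, which leaves 1 A366 library per line and assumes that it varies like the other groups.

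**Figure D1:**
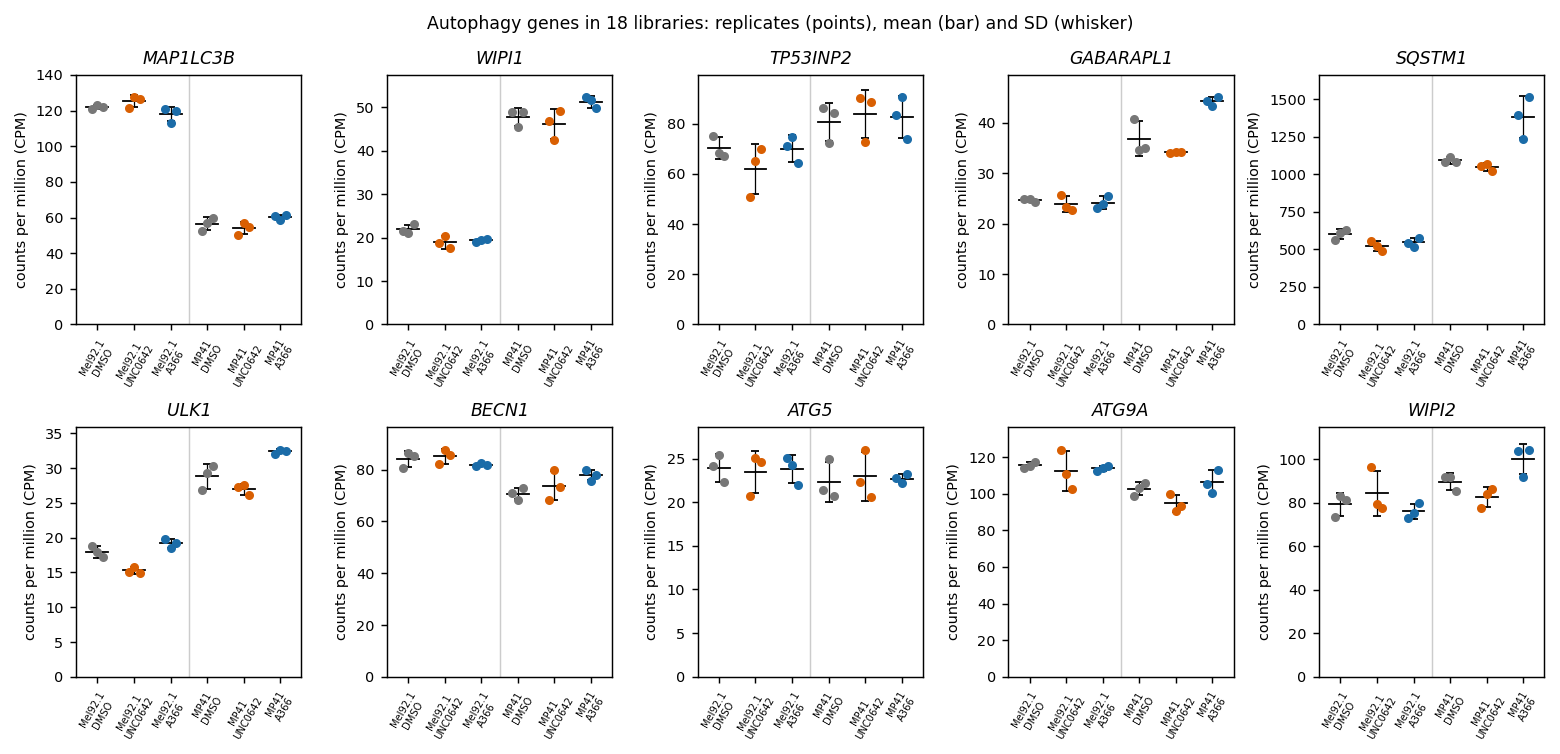
Level of each of the 10 genes in CPM (vertical axes, linear from 0) in the 18 libraries, by line and treatment. Points are replicates, bars are means of 3 and whiskers are SDs, and the gap between the lines is wider than any shift with an inhibitor for MAP1LC3B, WIPI1, GABARAPL1, SQSTM1 and ULK1.

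The level of the genes without inhibitor was examined first. Per kilobase of the longest transcript, SQSTM1 was the most abundant member in both lines, at 201 ± 11.4 CPM per kilobase in Mel92.1 and 365.9 ± 7.20 in MP41 (mean ± SD, n = 3 here and below). ULK1 was the least abundant, at 3.38 ± 0.158 and 5.43 ± 0.333 CPM per kilobase. In Mel92.1, MAP1LC3B came second at 39.6 ± 0.363 CPM per kilobase, above ATG9A at 28.7 ± 0.407. WIPI2, BECN1 and TP53INP2 followed with overlapping replicates between neighbors, then WIPI1 at 11.6 ± 0.553, and GABARAPL1 and ATG5, which overlapped each other. In MP41, MAP1LC3B was only sixth at 18.3 ± 1.18 CPM per kilobase, while WIPI1 at 25.3 ± 1.06 overlapped ATG9A at 25.5 ± 0.879 in second place. TP53INP2 overlapped both WIPI2 above it and MAP1LC3B below it.

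The levels were then compared between the lines. With DMSO, 7 of 10 members passed the test between the lines (edgeR over 18 libraries), where 69.4% of all 15799 genes tested passed, a share near that of the members. The replicates of the 2 lines did not overlap for 8 of 10 members, against 77.4% of all genes. MAP1LC3B, whose protein coats the autophagosome membrane, was at 121, 123 and 122 CPM in Mel92.1 and 52.6, 56.8 and 59.8 CPM in MP41. Every Mel92.1 replicate was more than any MP41 replicate, a 2.17-fold difference (95% CI 1.98 to 2.37; adjusted p = 5.0e-11). WIPI1, which binds the lipid PI3P on the growing membrane, lay the other way, at 21.6, 21.1 and 23.1 CPM in Mel92.1 and 49.1, 45.5 and 48.8 CPM in MP41 (log2 difference -1.12, SE 0.076, adjusted p = 6.2e-10).

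SQSTM1, the cargo receptor also called p62, was likewise lower in Mel92.1 (log2 difference -0.86, SE 0.070, adjusted p = 7.1e-09). ULK1, the kinase that starts autophagosome formation, was lower by a log2 difference of -0.68 (SE 0.073, adjusted p = 2.3e-07), and GABARAPL1, a relative of MAP1LC3B, by -0.58 (SE 0.077, adjusted p = 3.2e-06). BECN1, a subunit of the lipid kinase complex that makes PI3P, was higher in Mel92.1 by 0.25 (SE 0.062, adjusted p = 0.0018). ATG9A, a membrane protein of the vesicles that seed the autophagosome, was higher by 0.17 (SE 0.069, adjusted p = 0.037). That last call was not stable: with an offset for transcript length and GC content ATG9A was lower in Mel92.1 (log2 difference -0.28), and with DESeq2 its adjusted p was 0.10. TP53INP2, ATG5 and WIPI2 did not pass (adjusted p = 0.13, 0.41 and 0.070), but all 3 did with the offset, TP53INP2 at -0.49 (adjusted p = 0.0022), ATG5 at 0.46 (adjusted p = 4.8e-04) and WIPI2 at -0.38 (adjusted p = 2.7e-04). WIPI2 also passed with DESeq2 (-0.22, adjusted p = 0.025) and with RLE size factors (-0.22, adjusted p = 0.034). The offset widened the difference to -1.30 for ULK1 and -1.31 for SQSTM1.

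**Figure D2:**
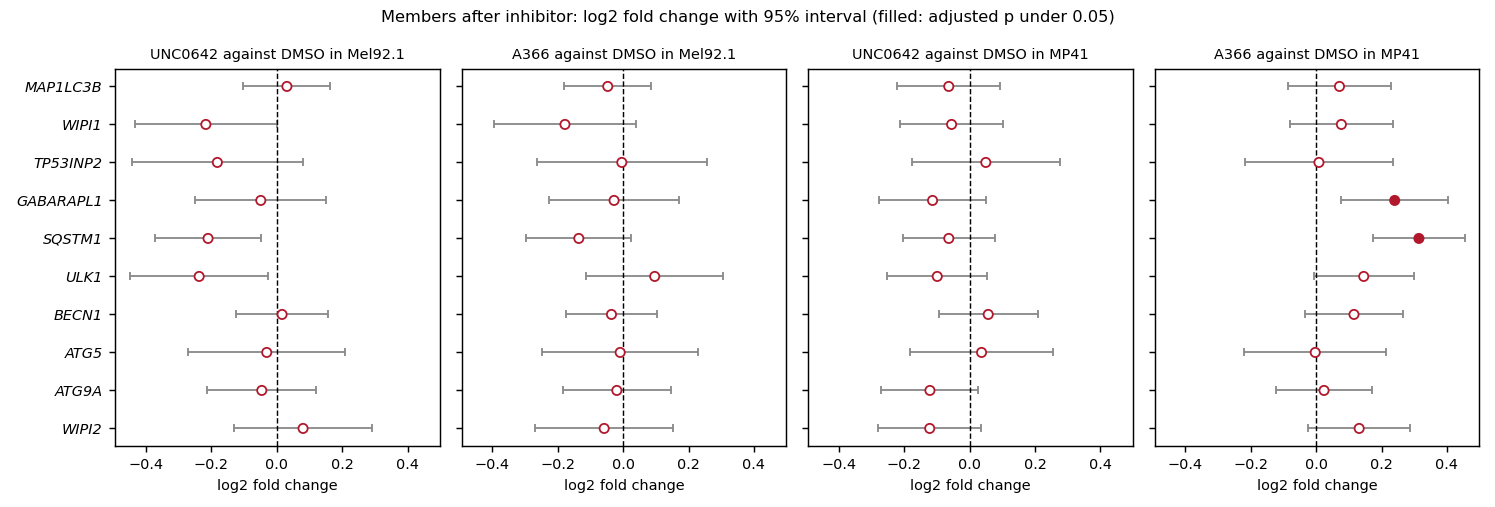
Log2 fold change of the 10 genes (horizontal axes) for each inhibitor against DMSO in each line, as estimates with 95% confidence intervals, n = 3 against 3. Filled points have an adjusted p under 0.05, and the only ones are GABARAPL1 and SQSTM1 for A366 in MP41.

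MAP1LC3B did not pass the test with either compound in either line. It lies on chromosome 16 from 87383995 to 87404779 on the plus strand (GRCh38, GENCODE annotation). In Mel92.1 its level was 121, 128 and 127 CPM with UNC0642 and 121, 113 and 120 CPM with A366, against 121 to 123 CPM with DMSO, so both groups overlapped the control. The fold change was 1.02 for UNC0642 (95% CI 0.932 to 1.12, adjusted p = 0.88) and 0.968 for A366 (95% CI 0.883 to 1.06, adjusted p = 1.00), which leaves room for a rise of at most 1.12-fold and 1.06-fold.

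In MP41, MAP1LC3B was at 50.3, 57.2 and 54.8 CPM with UNC0642 and 60.7, 58.7 and 61.4 CPM with A366, and both again overlapped DMSO. The fold changes were 0.957 (95% CI 0.858 to 1.07, adjusted p = 0.89) and 1.05 (95% CI 0.943 to 1.17, adjusted p = 0.45). Without the 4 exchanged libraries the A366 values were -0.019 in Mel92.1 and 0.064 in MP41 on the log2 scale, neither past the test. As labelled, MAP1LC3B passed as higher in MP41 (log2 fold change 0.82, adjusted p = 0.035) and was at -0.60 in Mel92.1 (adjusted p = 0.20). That grouping averages libraries of both lines, whose DMSO levels of MAP1LC3B differ 2.17-fold.

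WIPI1 (chromosome 17, 68420948 to 68457513, minus strand) had values below DMSO in Mel92.1 with both compounds. Its level was 18.8, 20.4 and 17.5 CPM with UNC0642 and 19.0, 19.4 and 19.7 CPM with A366, and neither group overlapped the DMSO replicates at 21.1 to 23.1 CPM. The log2 fold changes of -0.22 (SE 0.097, adjusted p = 0.50) and -0.18 (SE 0.097, adjusted p = 1.00) did not pass. In MP41, WIPI1 was at 46.9, 42.4 and 49.1 CPM with UNC0642, overlapping DMSO (log2 fold change -0.055, adjusted p = 0.91). With A366 it was at 52.4, 51.7 and 49.8 CPM, just above the highest DMSO replicate of 49.1 CPM, and the log2 fold change of 0.077 (SE 0.072, adjusted p = 0.41) did not pass either. Without the 4 exchanged libraries the A366 values of WIPI1 were -0.22 in Mel92.1 and 0.089 in MP41, and neither passed.

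TP53INP2 (chromosome 20, 34704290 to 34713439, plus strand) encodes a protein that moves from the nucleus to autophagosomes and binds the MAP1LC3B family. It had the widest replicate spread of the 10 genes, with a coefficient of variation of up to 16.2% in Mel92.1 with UNC0642. The values there were 50.7, 65.1 and 70.0 CPM, the lowest from replicate 1, the library with the highest ribosomal share (32.8%). DMSO replicates in that line were at 75.2, 68.3 and 67.2 CPM and A366 replicates at 71.0, 74.8 and 64.3 CPM, so all 3 groups overlapped. In MP41 the values were 86.1, 72.1 and 84.2 CPM with DMSO, 90.2, 72.9 and 88.7 CPM with UNC0642 and 83.4, 90.6 and 74.1 CPM with A366. The 4 log2 fold changes were -0.18, -0.0039, 0.050 and 0.0087 in the order UNC0642 and A366 in Mel92.1, then UNC0642 and A366 in MP41. Their 95% intervals reached up to 0.28 at most, so a rise of more than 1.21-fold lay outside all 4.

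With edgeR and no offset, the initiation and membrane genes gave no call against DMSO. ULK1 (chromosome 12, 131894651 to 131923167, plus strand) was at 18.8, 17.9 and 17.2 CPM with DMSO and 15.07, 15.84 and 14.98 CPM with UNC0642 in Mel92.1. The 2 groups did not overlap, and ULK1 had the lowest log2 fold change of the 10 genes there, -0.24 (SE 0.095), with an unadjusted p of 0.032 and an adjusted p of 0.45. With A366 in the same line it was at 19.8, 18.6 and 19.2 CPM (log2 fold change 0.097, adjusted p = 1.00). In MP41, A366 replicates of ULK1 at 32.1 to 32.7 CPM lay above all DMSO replicates at 26.9 to 30.3 CPM, with a log2 fold change of 0.15 (SE 0.070, adjusted p = 0.11), or 0.11 (adjusted p = 0.41) without the 4 exchanged libraries.

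BECN1 (chromosome 17, 42810134 to 42833350, minus strand), ATG9A (chromosome 2, 219219380 to 219229717, minus strand) and WIPI2 (chromosome 7, 5190188 to 5233826, plus strand) did not pass in any of the 4 comparisons. BECN1 had log2 fold changes between -0.036 and 0.12, and ATG9A between -0.12 and 0.024. WIPI2, which recruits the conjugation machinery to PI3P, was at 91.8, 92.1 and 85.4 CPM with DMSO and 104, 92.1 and 105 CPM with A366 in MP41 (log2 fold change 0.13, SE 0.072, adjusted p = 0.15). For A366 in MP41 without the 4 exchanged libraries, WIPI2 was at 0.16 and BECN1 at 0.13 (adjusted p = 0.13 and 0.26). In Mel92.1, WIPI2 in UNC0642 replicate 1 at 96.4 CPM stood above the other replicates at 79.2 and 77.5 CPM. That library had the highest ribosomal share. ATG5 (chromosome 6, 106045423 to 106325791, minus strand), part of the enzyme complex that attaches MAP1LC3B and its relatives to lipid, had log2 fold changes between -0.030 and 0.037 in the 4 comparisons. Its intervals spanned -0.27 to 0.25.

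Among all 10 members the UNC0642 comparisons held nothing past the threshold. In Mel92.1, 0 of 10 passed with edgeR and with DESeq2, where 0.688% of all genes tested passed with edgeR. At an unadjusted edgeR p under 0.05 there were 2 members (SQSTM1 and ULK1, both lower), beside 1442 of 14528 genes. limma voom with sample quality weights called 1 member, SQSTM1 (log2 fold change -0.25, adjusted p = 0.032), where it called 2.84% of all genes. The replicates of UNC0642 and DMSO did not overlap for 3 of 10 members there (WIPI1, SQSTM1 and ULK1, all lower), against 15.4% of all genes. In MP41, 0 of 10 passed with edgeR, DESeq2 and limma voom, 0 had an unadjusted p under 0.05, and 0.241% of all genes passed. GABARAPL1 and SQSTM1 did not overlap DMSO in MP41, both lower with UNC0642, against 18.8% of all genes. The median log2 fold change of the 10 members was -0.047 in Mel92.1 and -0.064 in MP41, beside -0.022 and 0.0011 for all genes tested.

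A366 in Mel92.1 also gave 0 of 10 with edgeR and with DESeq2, where 0.213% of all genes passed with edgeR. At an unadjusted edgeR p under 0.05 there were 0 members, beside 628 of 14528 genes. Without overlap was 1 member, WIPI1, against 15.7% of all genes. The median log2 fold change of the members was -0.032 (all genes, -0.0052). Of the members 9 of 10 were below DMSO and 1 was above it, beside 48.3% of all genes above it. With limma voom, 3 members fell, SQSTM1 (log2 fold change -0.18), WIPI1 (-0.17) and WIPI2 (-0.15), where 21.2% of all genes passed. As labelled, 0 members and 0 genes passed (0% of 14692 genes), with 5 members at an unadjusted edgeR p under 0.05, beside 3549 of 14692 genes. Without the exchanged libraries, which leaves 1 A366 library, the members' median log2 fold change was -0.050 (all genes, -0.017).

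For A366 in MP41 the background was of another order, since 46.0% of the 14956 genes tested passed, 3362 higher and 3522 lower. Of the 10 autophagy genes, 2 passed, a share below that of all genes. The replicates did not overlap DMSO for 6 of 10 members (WIPI1, GABARAPL1, SQSTM1, ULK1, BECN1 and WIPI2, all higher), against 58.0% of all genes. For WIPI2 the groups touched, since its lowest A366 replicate and its highest DMSO replicate were both at 92.1 CPM. The members' median log2 fold change was 0.097 beside 0.020 for all genes, and 9 of 10 were above DMSO, as were 51.8% of all genes. With the length and GC offset the median was 0.013 and 5 of 10 were above DMSO, beside 50.2% of all genes. The A366 libraries of MP41 also held more ribosomal RNA than the DMSO libraries, at 5.93%, 8.06% and 10.96% of counts against 3.31%, 5.10% and 4.19%. The summed level of 4 fibroblast markers was lower in them, at 22.5 to 23.4 CPM against 27.1 to 30.2 CPM, with COL3A1 and DCN under 1 CPM in MP41. Their part in the A366 changes was not tested. DESeq2 called the same number, 2, and limma voom called 5 of 10, all higher, where it called 68.5% of all genes. Beside SQSTM1 and GABARAPL1 these were WIPI2 (0.18, adjusted p = 0.0013), BECN1 (0.13, adjusted p = 0.0088) and ULK1 (0.13, adjusted p = 0.028).

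SQSTM1 (chromosome 5, 179806398 to 179838078, plus strand) was at 1079, 1117 and 1081 CPM with DMSO and at 1396, 1237 and 1512 CPM with A366. All A366 replicates were above all DMSO replicates, and they were more spread, with an SD of 138 CPM against 21.5 CPM. The increase was 1.24-fold (95% CI 1.13 to 1.37, log2 fold change 0.31, SE 0.064, adjusted p = 0.0023). It was as large without the 4 exchanged libraries (0.31), which leaves 1 A366 library in MP41. It turned to -0.40 (adjusted p = 0.36) with the libraries as labelled. With UNC0642 in MP41, SQSTM1 was at 1057, 1070 and 1018 CPM (log2 fold change -0.064, adjusted p = 0.86).

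GABARAPL1 (chromosome 12, 10212458 to 10223130, plus strand) was at 40.9, 34.6 and 35.1 CPM with DMSO and 44.4, 43.3 and 45.1 CPM with A366 in MP41. The groups did not overlap, and DMSO replicate 1 was the closest to the treated values. The rise was 1.18-fold (95% CI 1.05 to 1.32, log2 fold change 0.24, SE 0.075, adjusted p = 0.021). The call was lost without the 4 exchanged libraries (0.23, adjusted p = 0.10), leaving 1 of 10 members where 35.7% of all genes passed. It was also lost without DMSO replicate 2, DMSO replicate 3, A366 replicate 1 or A366 replicate 3 (adjusted p = 0.086, 0.093, 0.062 and 0.058). As labelled, GABARAPL1 was at -0.23 (adjusted p = 0.41), and MAP1LC3B was the 1 member of 10 that passed, where 32.8% of all genes did.

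**Figure D3:**
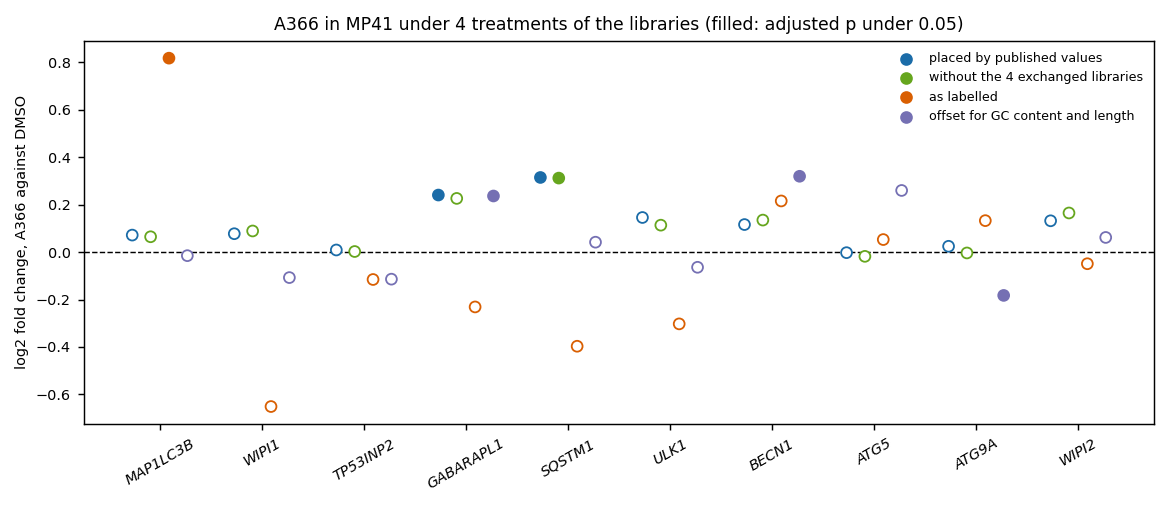
Log2 fold change of the 10 genes for A366 against DMSO in MP41 (vertical axis), from the main placement, without the 4 exchanged libraries, as labelled, and with an offset for transcript length and GC content. Filled points have an adjusted p under 0.05, and SQSTM1 goes from 0.31 to 0.04 with the offset and to -0.40 as labelled.

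Over all genes, those that rose and those that fell with A366 in MP41 differed in transcript length and base composition. Genes that rose had a median longest transcript of 2415 bases and a GC content of 56.2%, and genes that fell had 5422 bases and 42.1%. SQSTM1 lies at 2986 bases with 58.0% GC, and GABARAPL1 at 3214 bases with 47.8% GC. With an offset per library for both properties, 34.0% of all genes passed and the members' picture changed. SQSTM1 no longer passed (log2 fold change 0.042, adjusted p = 0.41), GABARAPL1 did (0.24, adjusted p = 0.015), BECN1 rose (0.32, adjusted p = 0.0039) and ATG9A fell (-0.18, adjusted p = 0.013).

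The promoters of 3 genes are shown because SQSTM1 and GABARAPL1 were the pair that rose with A366 in MP41 and MAP1LC3B holds the single motif match among the 10. Each is the 250 bases before the RefSeq start in GRCh38.p14, written 5′ to 3′ on the gene's strand, with the match in capitals:

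MAP1LC3B, chr16:87392086-87392335, plus strand: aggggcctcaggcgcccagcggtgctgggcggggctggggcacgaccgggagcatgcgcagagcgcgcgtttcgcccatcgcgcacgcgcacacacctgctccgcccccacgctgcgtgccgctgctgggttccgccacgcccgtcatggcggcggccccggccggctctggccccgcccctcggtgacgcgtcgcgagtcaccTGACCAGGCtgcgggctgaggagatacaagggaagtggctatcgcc

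SQSTM1, chr5:179806143-179806392, plus strand: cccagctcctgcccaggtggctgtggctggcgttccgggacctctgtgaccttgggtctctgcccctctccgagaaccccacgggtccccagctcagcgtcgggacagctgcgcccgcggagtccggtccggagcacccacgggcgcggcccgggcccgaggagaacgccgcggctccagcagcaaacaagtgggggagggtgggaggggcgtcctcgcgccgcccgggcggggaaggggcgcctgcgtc

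GABARAPL1, chr12:10212627-10212876, plus strand: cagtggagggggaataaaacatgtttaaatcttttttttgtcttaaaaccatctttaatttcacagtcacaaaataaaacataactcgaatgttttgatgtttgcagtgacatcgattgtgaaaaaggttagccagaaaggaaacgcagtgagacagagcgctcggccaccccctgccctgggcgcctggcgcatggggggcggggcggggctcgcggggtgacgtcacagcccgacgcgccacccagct

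The capitals in MAP1LC3B mark TGACCAGGC, a match to TGACNNNGC, the antioxidant response element bound by NRF2, 46 to 38 bases before the start. That motif occurs on either strand in 10.9% of 35116 RefSeq promoters of the same length, and in 1 of the 10 members. The E-box CACGTG, the core of the site of the lysosomal regulator TFEB, was in 0 of 10 (6.34% of all promoters), and the FOXO motif GTAAACA in 0 of 10 (2.98%). The ATF4 element TTGCATCA was in 0 of 10 (0.772%), as was its form TTGNATCA, which contains it (2.13%). The GC content was 74.8% for MAP1LC3B and 75.2% for SQSTM1, and 51.6% for GABARAPL1, against a median of 58.0% over all promoters. For ATG5 (chr6:106316267-106316516, 26.4% GC) and BECN1 (chr17:42823880-42824129, 58.8% GC) the 250 bases lie inside the GENCODE span of the gene. Those of MAP1LC3B and GABARAPL1 do too. Whether these stretches act as promoters was not tested, so the counts over 10 members may include stretches that are not promoters.

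The 2 compounds were compared directly at the same dose and time, for 20 pairs of gene and line. In Mel92.1, 0 of 10 members differed between A366 and UNC0642 with edgeR or limma voom (0.165% of all genes passed with edgeR). ULK1 had the one unadjusted edgeR p under 0.05 among the members there, beside 1047 of 14528 genes. Its log2 difference was 0.33 (SE 0.094, 95% CI 0.12 to 0.54, adjusted p = 0.40), and it passed with DESeq2 (adjusted p = 0.048). For the others the interval of the log2 difference lay within -0.35 to 0.44, which leaves moderate differences possible. In MP41, 4 of 10 were higher with A366 than with UNC0642, where 43.1% of all genes passed.

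These 4 were SQSTM1 (log2 difference 0.38, SE 0.064, adjusted p = 9.8e-04), GABARAPL1 (0.35, SE 0.075, adjusted p = 0.0031), WIPI2 (0.25, SE 0.072, adjusted p = 0.014) and ULK1 (0.24, SE 0.070, adjusted p = 0.014). Their replicates did not overlap between the compounds. The same held for MAP1LC3B, WIPI1 and ATG9A, which did not pass. Non-overlap, for which no share of all genes is given here, therefore does not mark out these 4 genes. Without the 4 exchanged libraries 3 of them passed (34.4% of all genes did), with ULK1 at 0.21 (adjusted p = 0.11). As labelled, 1 member passed, MAP1LC3B (31.0% of all genes), and SQSTM1, GABARAPL1 and ULK1 were below 0. With the offset ULK1 was at 0.071 (adjusted p = 0.47), and SQSTM1 was at 0.13 (adjusted p = 0.015). BECN1 passed with the offset (0.25, adjusted p = 0.014), in place of ULK1. The comparisons with DMSO and between compounds share libraries, so they are not separate evidence.

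Whether the lines responded differently was tested in 1 fit of 18 libraries, by subtracting the change in MP41 from that in Mel92.1. For UNC0642, 0 of 10 members differed with edgeR, DESeq2 and limma voom, with 0 at an unadjusted p under 0.05, and 0.601% of 15799 genes passed. For A366, 1 of 10 differed where 13.8% of all genes did. That member was SQSTM1, which was at 543, 517 and 579 CPM with A366 in Mel92.1 against 563, 610 and 629 CPM with DMSO, a log2 fold change of -0.14, while it rose by 0.31 in MP41. The difference between the lines was -0.48 (SE 0.099, 95% CI -0.69 to -0.27, adjusted p = 0.0080).

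Without the 4 exchanged libraries the difference for SQSTM1 was as large (-0.49) but did not pass (adjusted p = 0.063), and 0 of 10 members passed where 1.24% of all genes did. As labelled the sign turned (1.26, adjusted p = 0.043) and 5 of 10 passed where 49.4% of all genes did. With the length and GC offset the difference for SQSTM1 was -0.16 (adjusted p = 0.062), and the 1 member that passed was BECN1 instead (-0.36, adjusted p = 0.047).

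The members did not move as 1 group across libraries. Over the 18 libraries, with log2 CPM set against the DMSO mean of each line, the Pearson correlation between pairs of members ran from -0.59 (TP53INP2 and WIPI2) to 0.80 (GABARAPL1 and SQSTM1). These libraries share 6 conditions and their depth, so the values are descriptions. The 3 genes most like MAP1LC3B by this measure, of 13064 genes with a mean of at least 1 CPM, were MPC2, RUFY1 and TCFL5 (r = 0.84, 0.82 and 0.82). For WIPI1 they were ADAM11, LRRC8E and LGI3 (0.94, 0.89 and 0.89), and for TP53INP2 ANTXR1, MTMR1 and KIF3C (0.91, 0.90 and 0.90).

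The rest of the pathway was read from a list of 54 further autophagy genes, of which 53 were in the table. With edgeR, 0 passed for UNC0642 in Mel92.1 (52 tested), 0 for UNC0642 in MP41 (53 tested) and 0 for A366 in Mel92.1 (52 tested). For A366 in MP41, 12 of 53 rose and 12 fell, so 45.3% passed beside 46.0% of all genes, and their median log2 fold change was -0.0060. All 24 kept their direction without the 4 exchanged libraries, and 21 still passed. As labelled 19 kept their direction and 9 passed, and ATG7, ATG10, FUNDC1, VAMP8 and ZFYVE1 turned lower. With the length and GC offset 21 kept their direction and 13 of these passed. The genes named from this list were chosen after their values were seen.

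Of all 14956 genes tested for A366 in MP41, 3362 were higher and 3522 were lower. By role, 4 of 6 genes of the MAP1LC3B family were higher and 0 were lower. Beside GABARAPL1 these were MAP1LC3A (log2 fold change 1.00, SE 0.22), GABARAP (0.59, SE 0.075) and GABARAPL2 (0.41, SE 0.11), while MAP1LC3B itself did not pass. With the offset MAP1LC3A no longer passed (0.42, adjusted p = 0.091), and GABARAP (0.35) and GABARAPL2 (0.49) did. GABARAP was at 153, 151 and 147 CPM with DMSO and 233, 205 and 253 CPM with A366. Of 10 receptors and adaptors, SQSTM1 and FUNDC1 rose and TAX1BP1, BNIP3 and BNIP3L fell, all 3 of the latter being receptors that carry cargo to the autophagosome. FUNDC1, TAX1BP1, BNIP3 (-0.79, and -0.90 with the offset) and BNIP3L kept their calls with the offset.

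The next counts by role stand beside 46.0% of all 14956 genes that passed for A366 in MP41. Among these groups, only the initiation genes passed at a larger share. Whether any group differed from all genes was not tested. Of 7 tested genes of the lipid kinase complex, PIK3C3, PIK3R4 and UVRAG fell and 0 rose. With the offset PIK3R4 kept its call (-0.58, and -0.33 with the offset), UVRAG lost it (-0.14, adjusted p = 0.12), and PIK3C3, the catalytic subunit, went from -0.49 to 0.079 (adjusted p = 0.44). Of 5 initiation genes ATG101 was higher (0.65) and ULK2 and RB1CC1 were lower (-0.39 and -0.30). With the offset ATG101 was at 0.16 (adjusted p = 0.047), ULK2 no longer passed (-0.16, adjusted p = 0.12), and RB1CC1 turned to a rise that passed (0.19, adjusted p = 0.027). Of 9 genes of membrane supply, WDR45 and ZFYVE1 rose and ATG2B fell, and of 11 conjugation genes ATG4D, ATG7 and ATG10 rose and ATG16L1 fell. Among 9 fusion genes VAMP8 and YKT6 rose and EPG5 fell, and of 6 transcription factors MITF fell. Of these 11 genes, WDR45, ATG2B, ATG7, ATG10 and MITF passed in the same direction with the offset, and ATG4D turned to -0.13 (adjusted p = 0.20).

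Length differed between these groups too. The 14 autophagy genes that rose, members included, had a median longest transcript of 2442 bases and 53.0% GC, and the 12 that fell had 4915 bases and 45.3% GC. With the offset, 8 of the 14 and 6 of the 12 still passed in the same direction, and RB1CC1 passed in the opposite one. The direction was kept by 13 and 10, with ATG4D, PIK3C3 and RB1CC1 turned, and the median log2 fold changes went from 0.36 to 0.22 and from -0.44 to -0.15.

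**Figure D4:**
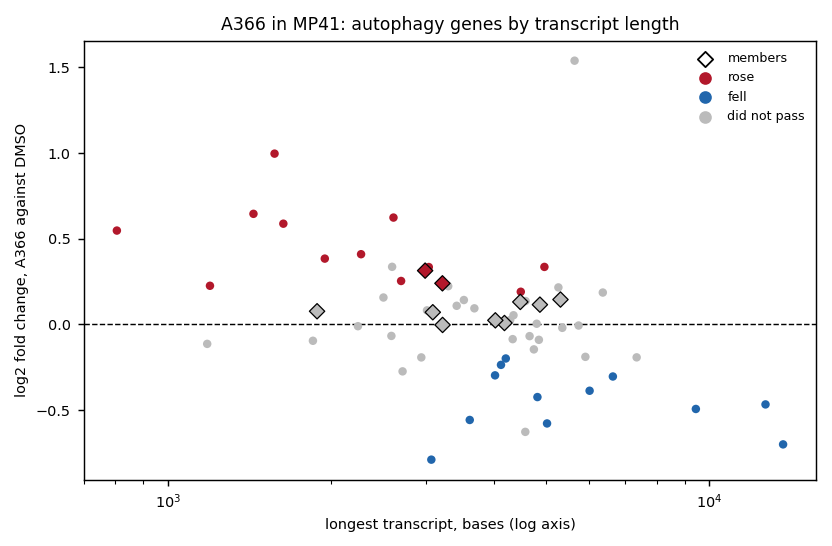
Log2 fold change for A366 against DMSO in MP41 (vertical axis) by the length of the longest transcript in bases (log axis), for the 10 members (diamonds) and 53 further autophagy genes (circles). Genes that fell are longer (median 4915 bases) than genes that rose (median 2442 bases), and the members lie between -0.0026 and 0.31.

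Near-identical copies of members were also counted. MAP1LC3B2 had 0 to 82.3 estimated counts in a library beside 1996 to 6758 for MAP1LC3B, GABARAPL3 had 0 to 7 and BECN2 0 to 4. Several members overlap another gene on the opposite strand, among them MAP1LC3B with FBXO31, SQSTM1 with MGAT4B and MRNIP, WIPI1 with ARSG and TP53INP2 with NCOA6. The libraries were made to keep strand, but whether the counting used it is not given in the sources used here. ATG9A also overlaps another protein-coding gene on its own strand in the GENCODE annotation. Its expected counts were whole numbers in all 18 libraries. Whether the authors' annotation held that gene is not given in the sources used here.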

How the data were processed

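The authors deposited 1 table of expected counts per gene from RSEM (expected counts, not normalized for depth), and per the labels the notes on processing name RSEM 1.2.15, Bowtie2 2.1.0 and the human build hg38. The methods of the study name another route (TopHat, Cufflinks and a mouse build), which does not match the human symbols of the table, and the labels and series text differ on oligo-dT selection or ribosomal RNA removal. Values that are not whole numbers made up 5.85% to 13.4% of each library, and all were rounded. Total counts ran from 23601160 to 62941453 per library. All columns of libraries were used.

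The 9 libraries of a line entered 1 model in edgeR 4.0.16 under R 4.3.3 (filterByExpr, TMM factors, glmQLFit and glmQLFTest), with Benjamini-Hochberg adjustment over all genes and a threshold of 0.05. Comparisons between lines used all 18. The inhibitor groups follow the study's published per-replicate values for 4 A366 libraries, and the labels for the rest. CPM were scaled by TMM factors over 18 libraries, levels between genes were divided by the longest transcript (GENCODE annotation, GRCh38), and correlations used log2 CPM with a prior count of 0.5. A GC content and length per gene was found for 23899 symbols by name and 719 by synonym, and not for 1857. Promoters came from RefSeq (GRCh38.p14).

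The members and gene lists were chosen with earlier results of these data known. The genes named are the 10 members, their near-identical copies, the 3 genes most like MAP1LC3B, WIPI1 and TP53INP2, and other autophagy genes past the threshold in at least 2 of the 4 inhibitor comparisons in the same direction, of which there were 0. Genes of the autophagy lists named from A366 in MP41 alone fall outside this rule and were chosen after their values were seen. Alternatives were the labelled placement, leaving out the 4 libraries, fits of only the 6 libraries compared, RLE factors, DESeq2 1.42.0, limma 3.58.1 voom with sample quality weights, no filter on low counts, the replicate number as a block, an offset for length and GC content (lowess over a span of 0.3), and each library left out in turn. The fits were tested on simulated counts. Tables used pandas 2.3.3 and numpy 2.4.6 under Python 3.11.15, and plots used matplotlib 3.10.9.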

Additional observations from a re-analysis of the deposited data

Results flagged for a closer look

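SQSTM1 changed differently with A366 in the 2 lines. The difference, its log2 fold change in Mel92.1 less that in MP41, was -0.48 (SE 0.099, edgeR adjusted p = 0.0080, n = 3 per group), and it was below 0 in every alternative except the libraries as labelled. SQSTM1 was lower than the DMSO mean in 3 of 3 A366 libraries of Mel92.1 and higher in 3 of 3 of MP41. With an offset for length and GC content the difference was -0.16 (adjusted p = 0.062), without the 4 exchanged libraries it was -0.49 (adjusted p = 0.063), and as labelled it was 1.26 (adjusted p = 0.043). It stands here because the responses of the lines differed by a test of the difference itself. Groups of 3 are too small for a test of outlying libraries.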

How the results depend on the processing

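The counts of members past the threshold, out of 10, kept within 1.5 times of the reported count in all 9 comparisons under several alternatives. These were RLE factors, no filter on low counts, the replicate block, and the length and GC offset. With the offset, BECN1 took the place of SQSTM1 for the difference between lines with A366. It took the place of ULK1 for A366 against UNC0642 in MP41. SQSTM1 gave way to BECN1 and ATG9A for A366 against DMSO in MP41. The counts also kept within 1.5 times in all 6 comparisons within a line with only the 6 libraries compared. With limma voom and quality weights they were 1 for UNC0642 and 3 for A366 in Mel92.1, 5 for A366 in MP41, 6 for the difference between lines in the response to A366, and 10 between the lines with DMSO. DESeq2 gave 1 for A366 against UNC0642 in Mel92.1 and 2 for the difference between lines with A366. As labelled they were 1 for A366 in MP41 against DMSO, 1 against UNC0642 and 5 for the difference between lines, and without the 4 exchanged libraries 1 for A366 in MP41 and 0 for that difference. Leaving out 1 library at a time gave 1 to 3 for A366 in MP41 (1 without DMSO replicate 2 or 3 or A366 replicate 1 or 3, and 3 without A366 replicate 2). It gave 1 to 2 for the difference between lines with A366, where the 2 came without Mel92.1 UNC0642 replicate 1 or without MP41 DMSO replicate 1. Shares of all genes are not given here for these counts, nor for those between lines with limma voom and DESeq2.

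Direction turned mostly for values near 0. As labelled, log2 fold changes for A366 in Mel92.1 were 0.89 for WIPI1, 0.17 for TP53INP2, 0.60 for GABARAPL1, 0.88 for SQSTM1 and 0.19 for WIPI2. In MP41 they were -0.65 for WIPI1, -0.12 for TP53INP2, -0.23 for GABARAPL1, -0.40 for SQSTM1, -0.30 for ULK1, 0.053 for ATG5 and -0.049 for WIPI2. For A366 against UNC0642 in MP41 as labelled, GABARAPL1 was at -0.12, SQSTM1 at -0.33 and ULK1 at -0.20, and the difference between lines for SQSTM1 was 1.26. This grouping mixes the lines by construction. Without the 4 exchanged libraries, A366 gave 0.0079 for TP53INP2 and 0.060 for ATG5 in Mel92.1 and -0.0038 for ATG9A in MP41.

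With the length and GC offset, ATG9A was at 0.00086 for UNC0642 in Mel92.1, and A366 gave 0.026 for TP53INP2 and 0.021 for ATG9A in Mel92.1. For A366 in MP41 it gave -0.015 for MAP1LC3B, -0.11 for WIPI1, -0.11 for TP53INP2, -0.064 for ULK1, 0.26 for ATG5 and -0.18 for ATG9A, and between the lines with DMSO ATG9A was at -0.28. With limma voom, UNC0642 in Mel92.1 gave 0.0074 for ATG5 and -0.053 for WIPI2, A366 gave 0.057 for TP53INP2 and 0.0050 for ATG5 in Mel92.1, and -0.021 for TP53INP2 and 0.028 for ATG5 in MP41. ATG5 for A366 in MP41 was at 0.0069 with no filter. The cause of these turns was not tested.

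Leaving out 1 library turned the sign of some members, none of them past the threshold. Their log2 fold changes are given from the lowest to the highest. For UNC0642 against DMSO in Mel92.1 they ran from -0.015 to 0.044 for BECN1, -0.090 to 0.051 for ATG5, -0.12 to 0.021 for ATG9A and -0.020 to 0.14 for WIPI2. For A366 against DMSO in Mel92.1 they ran from -0.051 to 0.048 for TP53INP2, -0.077 to 0.0046 for GABARAPL1 and -0.060 to 0.038 for ATG5. For UNC0642 against DMSO in MP41 they ran from -0.10 to 0.0062 for WIPI1, -0.025 to 0.15 for TP53INP2 and -0.059 to 0.12 for ATG5. For A366 against DMSO in MP41 they ran from -0.066 to 0.076 for TP53INP2, -0.055 to 0.086 for ATG5 and -0.029 to 0.061 for ATG9A.

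Replicate numbers are shared across groups in the labels. Samples with the same number mostly did not deviate together: 3 of 18 pairs had a correlation over 0.1 (range -0.30 to 0.29). These correlations cannot tell whether samples with the same number shared a culture or preparation, which was not tested. The replicate block left 2 members for A366 in MP41 and gave ATG5 there as 0.0042. At these depths the 95% intervals allow rises of up to 1.22-fold with UNC0642 in Mel92.1, 1.24-fold with A366 in Mel92.1 and 1.21-fold with UNC0642 in MP41, so smaller rises may not be detectable. Over all alternatives, the fold changes of single members kept direction and call in 979 cases, gained a call in 18, lost one in 22 and turned direction in 59.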
